A study of Mus musculus with 8 samples.

Results

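The genes described here encode the transport machinery and the gate of the cilium: intraflagellar transport (IFT) particles and their motors, the BBSome with its chaperonins, and the transition zone at the ciliary base. They were chosen by symbol, 22 by the pattern Ift or Bbs followed by a number and 19 from a written list of 20, which gave 41 of the 19937 genes with a single annotated symbol on the array. Arl13b, the remaining listed gene, was not analysed here. Expression was measured in total RNA of whole, untreated lungs of mice at postnatal day 21, on Affymetrix arrays with 4 mice in each group. One group is labelled beta-catenin stabilized and the other beta-catenin knockout, with 8 arrays in all. Beta-catenin activates transcription in canonical Wnt signalling and also links cadherins at adherens junctions. Neither a Cre driver nor the exons altered are in the labels, and the cell types with each allele are likewise not given in the sources used here. The arrays compare both genotypes only with each other, since lungs without either allele were not analysed here.

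Most cell types carry a single immotile primary cilium that serves as a sensory antenna, and Hedgehog signalling passes through it. Airway multiciliated cells carry many motile cilia that clear mucus. Both kinds are built by the same transport system, in which kinesin-2 motors carry IFT-B trains from base to tip and the cytoplasmic dynein-2 motor with IFT-A returns them to the base. The BBSome is a cargo adaptor that moves membrane proteins out of the cilium, and the transition zone is the gate that controls which proteins enter. Dynein arms, radial spokes and the central pair, in contrast, belong to motile axonemes.

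Each array held the same probe sets, and values are log2 expression after RMA, 1 per probe set and array. Array medians lay between 5.97 and 6.03, and correlations between arrays over all genes were 0.993 to 0.996 within a group and 0.987 to 0.993 between groups. Even the most alike arrays had a root mean square difference of 0.164 (log2) over genes, which leaves no duplicated array. Lung tissue markers (Sftpc, Sftpb, Scgb1a1, Ager, Nkx2-1 and Hopx) had mean log2 levels of 11.24 to 11.34 in stabilized and 11.27 to 11.39 in knockout arrays. All mice are labelled male, but Xist, the RNA that coats the inactive X in female cells, was at 10.36 to 10.59 in stabilized replicates 1 and 4 and 10.42 to 10.55 in knockout replicates 1 and 3, and at 4.18 to 4.62 in the other arrays. In the 4 arrays with high Xist, 3 Y-linked transcripts (Kdm5d, Eif2s3y and Uty) were at 3.08 to 4.00, and in those with low Xist at 6.71 to 8.35. Both patterns occurred in 2 arrays of each genotype. For the members with a limma adjusted p under 0.05, differences within each pattern are given below beside the pooled ones.

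The ciliary transport and gate genes differed little between the groups. With limma and Benjamini-Hochberg adjustment over all genes, 6 of 41 members were lower in stabilized lungs at an adjusted p under 0.05, 0 were higher and 35 did not pass. A member that passed this threshold is called below. Over all genes 9.62% were called, 4.96% lower and 4.65% higher, against 14.6% of the members called lower and 0% called higher. Among the members by role, the share called was 8.33% for IFT-B, 16.7% for IFT-A, 0% for the motors and 22.2% each for the BBSome and transition zone sets. The 6 called members are Traf3ip1, Rpgrip1l, Bbs1, Mks1, Wdr19 and Bbs9, and their differences lay between -0.38 and -0.24 on the log2 scale, or 1.3-fold to 1.18-fold lower. At an unadjusted p under 0.05, 12 members were lower and 1, Ift122, was higher. The median difference over the 41 members was -0.08, beside -0.01 over all genes, and 30 of 41 were negative, beside 52.2% of all genes. With each array centred on its own median, 26 of 41 were negative, beside 41.5% of all genes, and the medians were -0.04 for the members and 0.03 for all genes.

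All 4 stabilized arrays lay below all 4 knockout arrays in 10 of 41 members, beside 7.82% of all genes. The opposite order was seen in 0 members, beside 9.06% of all genes. The count of called members varied with the array left out. It was 2 without knockout replicate 3, 3 without stabilized replicate 1 and 3 without knockout replicate 2, and 4 to 7 with any other array left out. Calls over all genes fell too, from 1917 to 1235, 1216 and 1407 without these 3 arrays in the same order. Every fit with 1 array left out gave fewer calls over all genes than the full fit, but the counts ranged from 1216 to 1839. Why the counts differed between these fits was not tested. Traf3ip1 alone kept its call in all 8 fits with 1 array left out. None of the members differed by more than 0.5 on the log2 scale, and all 35 uncalled members had a 95% interval of the difference (limma) within 0.5 of 0.

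**Figure D1:**
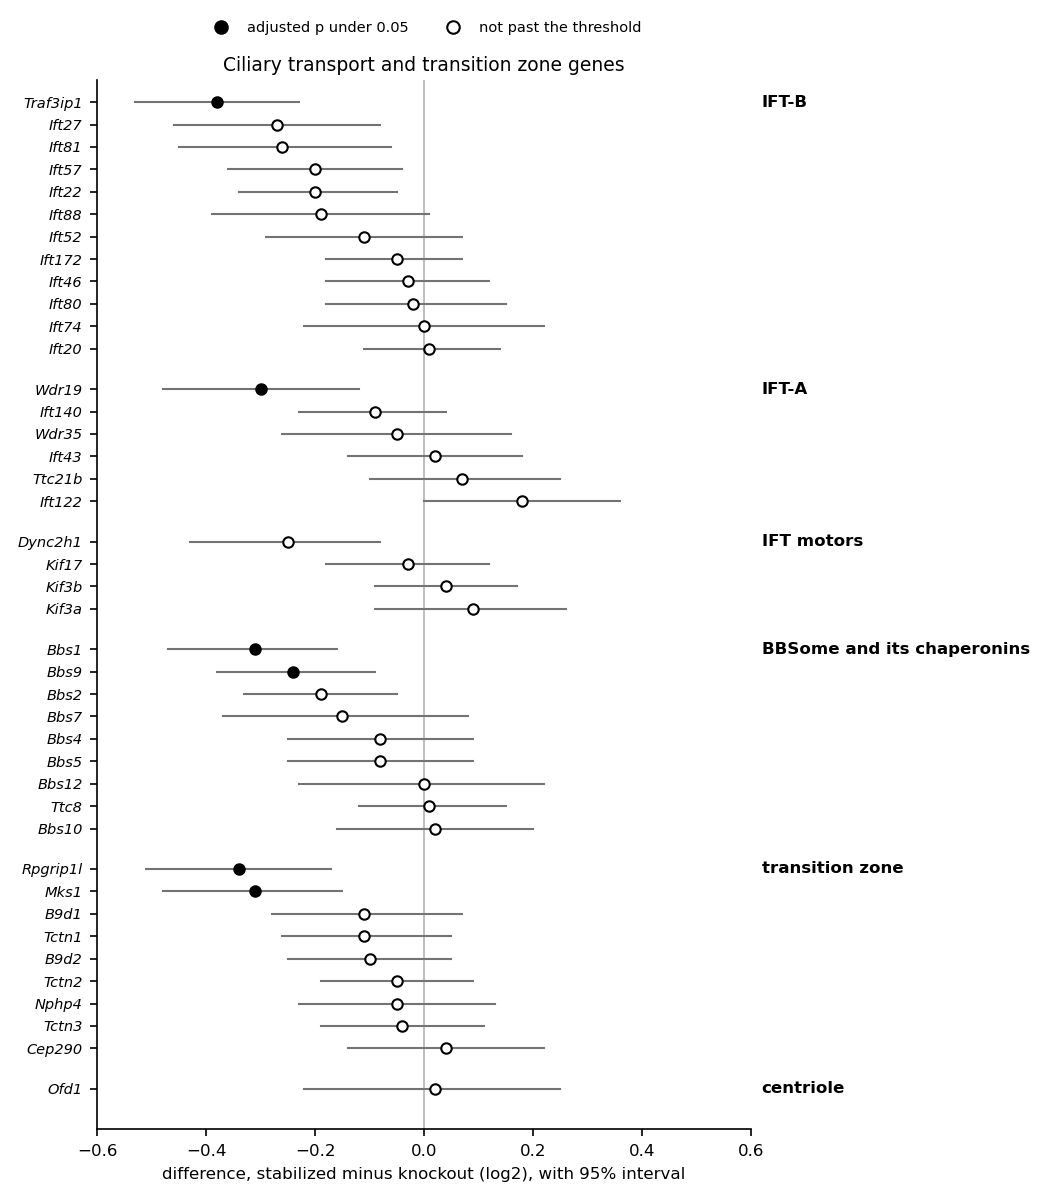
Difference between stabilized and knockout lungs for each of the 41 members, on the horizontal axis in log2 units with limma's 95% interval (n = 4 arrays per group), grouped by role down the page. Filled points are the 6 members with an adjusted p under 0.05, which all lie left of 0, from -0.38 for Traf3ip1 to -0.24 for Bbs9.

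Cilium genes are known for binding sites of the RFX transcription factors in their promoters, a motif called the X-box, so the members' promoters were read from RefSeq (GRCm38.p6, 250 bases before to 50 after each start). Of the 41 members 38 had a promoter in the table, 2 of them (B9d2 and Nphp4) more than 1. The 6-letter core of the motif, GTTGCC, was searched on both strands and found in 20 of 38 members (52.6%), in 14.1% of all 27025 genes with a promoter and in 14% of the genes that are also on the array. The 14-letter form, the arms GTNNCC and GNAAC with 3 bases between them, can contain the core and was found in 10 of 38 members (26.3%) and in 2.49% of all genes, and the stricter form with GTTNCC as its left arm in 4 of 38 (10.5%) and 0.936% of all genes. A FOX motif, TGTTTAC, was found in 0 of 38 members and 4.05% of all genes. Of the 36 motile axoneme markers with a promoter, a list described below, 44.4% held the core, 30.6% the 14-letter form, 19.4% its stricter form and 5.56% the FOX motif. These motifs were chosen after the values were seen, and a match describes letters in a window, not a bound site. The 14-letter matches of the 10 members are shown as a promoter feature that the choice of genes did not use, and 28 of the 38 members lack it. Each is printed with the motif in capitals on the strand where it reads from 5′ to 3′, and for matches on both strands 1 of them is shown.
B9d2 (chr7:25680788-25680817, plus strand): aacctgctGTTGCCCCAGCAACagtcgggg
Bbs1 (chr19:4906605-4906634, plus strand): tcccaggcGTCGCCTTGGCAACcagctcag
Bbs4 (chr9:59353464-59353493, minus strand): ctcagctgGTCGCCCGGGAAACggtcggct
Bbs7 (chr3:36613489-36613518, minus strand): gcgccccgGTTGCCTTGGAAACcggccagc
Ift22 (chr5:136908109-136908138, plus strand): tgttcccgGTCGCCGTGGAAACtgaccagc
Ift57 (chr16:49699199-49699228, minus strand): ggcagccgGTCACCACGGCAACcagacccg
Mks1 (chr11:87853183-87853212, plus strand): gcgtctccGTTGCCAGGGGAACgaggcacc
Nphp4 (chr4:152477903-152477932, plus strand): cggtgcccGTCTCCTAGGTAACgcgccagc
Tctn1 (chr5:122264411-122264432, plus strand): GTTGCCCGGGCAACagtcacag
Tctn2 (chr5:124598679-124598708, minus strand): gaggaccaGTAGCCATGGTAACctccaatc
Ift22 held a further match next to the one shown, and the window of Tctn1 ends with the table's sequence.

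Called members were found with and without the motif. Of the 20 members with the 6-letter core 3 were called (Traf3ip1, Bbs1 and Mks1), and of the 18 without it 3 were called (Rpgrip1l, Wdr19 and Bbs9). The differences of members with the core had a median of -0.10 and 19 of 20 were negative, and those of members without it had a median of 0.00 and 9 of 18 were negative. By the 14-letter form, 10 of 10 members with it and 18 of 28 without it were negative, with medians of -0.13 and -0.05. Bbs4 and Ift22 hold the 14-letter form but not the core. Some signs rest on differences that round to 0.00, such as those of Bbs12 and Ift74. Whether either split goes with the motif was not tested. The 250 bases before the start of Mks1 and Traf3ip1 are shown as the called members whose core lies there, with the matched letters in capitals, 24 bases before the start in Mks1 and 79 bases before it in Traf3ip1.
Mks1 (chr11:87852965-87853214, plus strand): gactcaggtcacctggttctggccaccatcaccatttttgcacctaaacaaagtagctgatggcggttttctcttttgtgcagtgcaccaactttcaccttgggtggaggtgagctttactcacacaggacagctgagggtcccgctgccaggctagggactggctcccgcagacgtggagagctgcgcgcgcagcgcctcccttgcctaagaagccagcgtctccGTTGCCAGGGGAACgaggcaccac
Traf3ip1 (chr1:91494418-91494667, plus strand): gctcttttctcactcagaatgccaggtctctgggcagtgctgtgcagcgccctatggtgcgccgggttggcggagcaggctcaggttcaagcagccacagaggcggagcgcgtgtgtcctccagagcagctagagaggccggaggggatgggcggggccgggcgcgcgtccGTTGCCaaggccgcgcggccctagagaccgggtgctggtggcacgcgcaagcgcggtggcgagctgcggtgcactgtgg

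**Figure D2:**
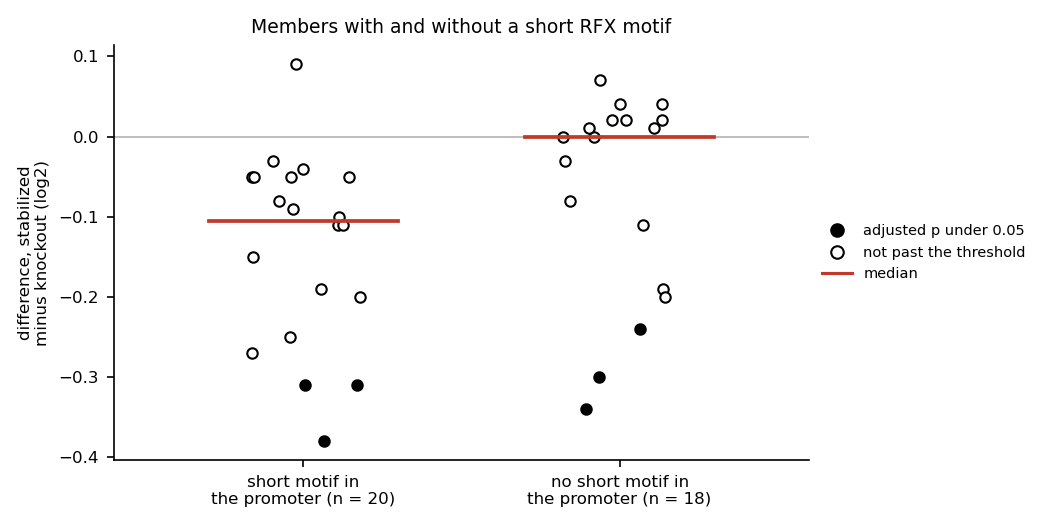
Differences between stabilized and knockout lungs (vertical axis, log2) of the 20 members with the 6-letter RFX core in their promoter and the 18 without it. Filled points are called members, 3 in each set, and the red bars are medians, -0.10 with the motif and 0.00 without it.

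IFT-B is the particle that carries cargo toward the ciliary tip. Of the 12 subunits among the members 1 was lower in stabilized lungs and 11 did not pass. Their median difference was -0.15, and 10 of 12 were negative. Subunits that the choice by symbol missed, such as Ttc26 (lower) and Ttc30b (higher), are described below with the other ciliary pathway genes. The called member was Traf3ip1, which links the particle to microtubules and also binds the signalling adaptor TRAF3. Its level (log2) was 7.05, 7.13, 6.92 and 7.16 in stabilized replicates 1 to 4, against 7.49, 7.40, 7.44 and 7.46 in knockout replicates 1 to 4. Every stabilized array lay below every knockout array. The difference was -0.38 ± 0.07 (SE, n = 4 per group, limma adjusted p = 0.0037), and it was -0.36 among arrays with high Xist and -0.40 among those with low Xist.

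Below the threshold, 4 further IFT-B subunits among the members had an interval that did not reach 0. Ift27, a small GTPase of the particle that also acts in export of the BBSome, averaged 6.35 ± 0.14 in stabilized and 6.62 ± 0.14 in knockout arrays (SD, n = 4), a difference of -0.27 ± 0.09 (SE, limma adjusted p = 0.077). It passed without knockout replicate 1 (limma adjusted p = 0.04). Ift81, part of the tubulin-binding module, differed by -0.26 ± 0.09 (SE, limma adjusted p = 0.1). Ift57, a peripheral subunit that pairs with Ift20, and Ift22, a further small GTPase, differed by -0.20 each, with SE of 0.07 each (limma adjusted p = 0.12 and 0.085). In Ift81 and Ift22 the groups did not overlap, whereas in Ift27 and Ift57 they did.

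The remaining core and peripheral IFT-B subunits among the members had intervals spanning 0. Ift88, whose loss abolishes cilia in mice, averaged 6.76 ± 0.17 in stabilized and 6.95 ± 0.12 in knockout arrays (SD, n = 4), a difference of -0.19 with an interval of -0.39 to 0.01. Ift52 differed by -0.11, Ift172 by -0.05, Ift46 by -0.03 and Ift80 by -0.02. Ift20, which also works at the Golgi, differed by 0.01 with an interval of -0.11 to 0.14. The subunit with the largest p was Ift74, a partner of Ift81 in tubulin binding. It was at 5.042, 5.436, 4.946 and 5.004 in stabilized replicates 1 to 4, against 5.159, 4.995, 5.166 and 5.103 in knockout replicates 1 to 4. The groups overlapped, with stabilized replicate 2 highest of all 8 arrays, and the difference was 0.00 with an interval of -0.22 to 0.22.

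IFT-A is the particle of the return journey and also brings membrane receptors into the cilium. Of its 6 measured subunits Wdr19 was called lower and 5 did not pass, with a median difference of -0.02 and 3 negative. Wdr19 belongs to the core of IFT-A, and its level was 6.84, 6.72, 6.46 and 6.54 in stabilized replicates 1 to 4, against 6.95, 6.97, 6.92 and 6.92 in knockout replicates 1 to 4. The groups did not overlap, and the stabilized arrays were the more spread. The difference was -0.30 ± 0.08 (SE, n = 4 per group, limma adjusted p = 0.037), with -0.25 among high-Xist and -0.36 among low-Xist arrays. The call was lost with each array centred on its median (limma adjusted p = 0.057). It was also lost without stabilized replicate 3 or 4 or any 1 knockout replicate, with a highest adjusted p of 0.091.

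Among the other IFT-A subunits Ift122, also of the core, was the member with the largest positive difference, 0.18 ± 0.08 (SE, limma adjusted p = 0.2). It averaged 6.45 ± 0.17 in stabilized and 6.28 ± 0.02 in knockout arrays (SD, n = 4), and stabilized replicate 4, at 6.24, lay below every knockout array. Ttc21b, a peripheral subunit mutated in human ciliopathies, differed by 0.07, Wdr35 by -0.05 and Ift140 by -0.09, all with intervals spanning 0. The subunit with the largest p was Ift43, a small peripheral subunit, at 7.41, 7.51, 7.37 and 7.46 in stabilized replicates 1 to 4, against 7.52, 7.23, 7.45 and 7.47 in knockout replicates 1 to 4. The groups overlapped, and its difference was 0.02 with an interval of -0.14 to 0.18.

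**Figure D3:**
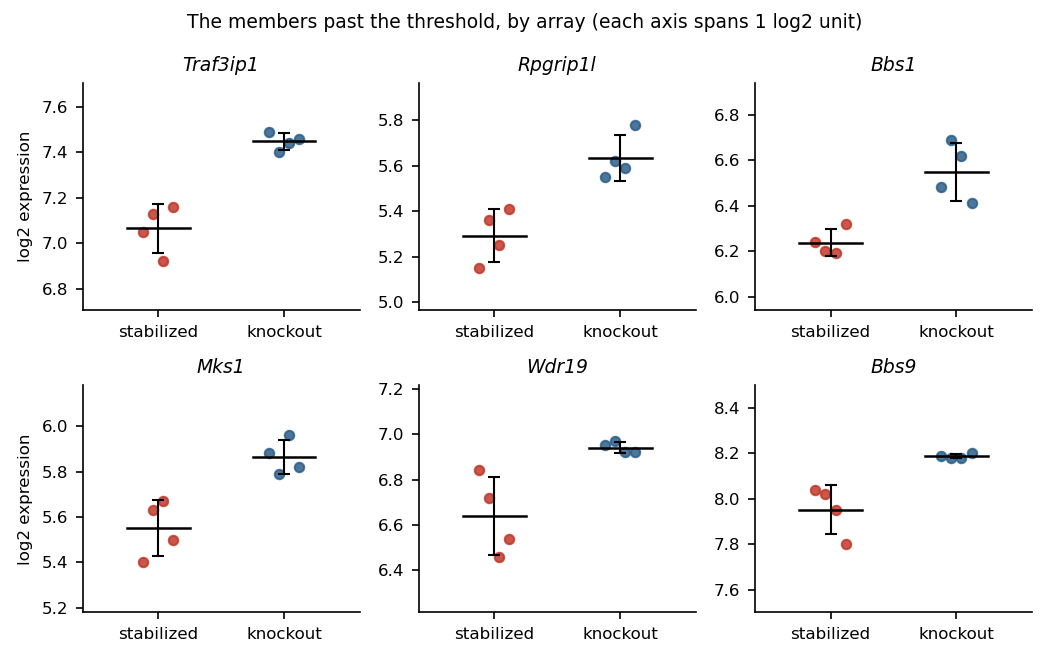
Log2 expression in each array (points, 4 per group) of the 6 called members, with the group mean and SD as black bars; each vertical axis spans 1 log2 unit. In each of the 6 the stabilized arrays lie below all knockout arrays, and the largest difference is that of Traf3ip1, at -0.38.

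None of the 4 motor genes among the members was called (limma, 1 at an unadjusted p under 0.05), and their median difference was 0.00. Dync2h1, the heavy chain of the dynein-2 motor that drives return transport, was the motor with the largest difference. It averaged 6.57 ± 0.16 in stabilized and 6.82 ± 0.03 in knockout arrays (SD, n = 4), a difference of -0.25 ± 0.08 (SE, limma adjusted p = 0.066), and the groups did not overlap. It passed without stabilized replicate 2 (limma adjusted p = 0.014) and with only genes of a mean of at least 6 tested (limma adjusted p = 0.043). Kif3a and Kif3b, the motor subunits of heterotrimeric kinesin-2, which also carries cargo outside cilia, differed by 0.09 and 0.04, with intervals of -0.09 to 0.26 and -0.09 to 0.17. Kif17, an accessory homodimeric kinesin-2 known mainly from sensory and neuronal cilia, was at 4.84, 4.89, 4.84 and 4.91 in stabilized replicates 1 to 4, against 4.84, 4.83, 4.85 and 5.09 in knockout replicates 1 to 4. Only knockout replicate 4 stood apart, and the difference was -0.03 with an interval of -0.18 to 0.12.

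Of 9 genes of the BBSome and its chaperonins, Bbs1 and Bbs9 were lower in stabilized lungs and 7 did not pass, with a median difference of -0.08 and 7 of 9 negative. Bbs1 encodes the subunit through which the BBSome binds the small GTPase ARL6 at membranes. Its level was 6.24, 6.20, 6.19 and 6.32 in stabilized replicates 1 to 4, against 6.48, 6.69, 6.62 and 6.41 in knockout replicates 1 to 4. The groups did not overlap, and they came closest in stabilized replicate 4 and knockout replicate 4. The difference was -0.31 ± 0.07 (SE, n = 4 per group, limma adjusted p = 0.018), with -0.27 among high-Xist and -0.36 among low-Xist arrays. The call was lost without knockout replicate 2 (limma adjusted p = 0.057) or 3 (limma adjusted p = 0.06).

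Bbs9, a large subunit of the complex, was at 8.04, 8.02, 7.95 and 7.80 in stabilized replicates 1 to 4, against 8.19, 8.18, 8.18 and 8.20 in knockout replicates 1 to 4. Its knockout arrays were nearly equal, at an SD of 0.01, and all stabilized arrays lay below them. The difference was -0.24 ± 0.07 (SE, n = 4 per group, limma adjusted p = 0.045), with -0.26 among high-Xist and -0.21 among low-Xist arrays. This call lay closest to the threshold. With single arrays left out it held only without stabilized replicate 2 and missed the threshold in the other 7 fits (highest adjusted p = 0.099). It was also lost with median centring (limma adjusted p = 0.079) and with Xist as a covariate (limma adjusted p = 0.061).

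The other BBSome subunits differed by less. Bbs2, a core subunit, averaged 6.74 ± 0.08 in stabilized and 6.93 ± 0.06 in knockout arrays (SD, n = 4) without overlap, a difference of -0.19 ± 0.07 (SE, limma adjusted p = 0.086). Bbs7 differed by -0.15, Bbs4 and Bbs5 by -0.08 each and Ttc8 by 0.01, and the intervals of all 4 spanned 0. The chaperonin-like genes Bbs10 and Bbs12, whose products help to assemble the BBSome, differed by 0.02 and 0.00. Bbs12 had the largest p of this set, at 5.08, 4.74, 4.82 and 4.92 in stabilized replicates 1 to 4, against 5.16, 4.88, 4.67 and 4.87 in knockout replicates 1 to 4. The stabilized arrays lay within the range of the knockout arrays, and the interval of the difference was -0.23 to 0.22.

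Of 9 transition zone genes Rpgrip1l and Mks1 were lower in stabilized lungs and 7 did not pass, with a median difference of -0.10 and 8 of 9 negative. Rpgrip1l encodes a scaffold of the gate that is mutated in human Joubert and Meckel syndromes. Its level was 5.15, 5.36, 5.25 and 5.41 in stabilized replicates 1 to 4, against 5.55, 5.62, 5.59 and 5.78 in knockout replicates 1 to 4. No stabilized array reached the lowest knockout array. The difference was -0.34 ± 0.08 (SE, n = 4 per group, limma adjusted p = 0.015), with -0.29 among high-Xist and -0.39 among low-Xist arrays. The call was lost without stabilized replicate 1 (limma adjusted p = 0.054) and after repeated quantile normalization (limma adjusted p = 0.051).

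Mks1, a B9-domain protein of the gate complex and the promoter shown above with a 14-letter match, was at 5.40, 5.63, 5.67 and 5.50 in stabilized replicates 1 to 4, against 5.88, 5.79, 5.96 and 5.82 in knockout replicates 1 to 4. The groups did not overlap. The difference was -0.31 ± 0.07 (SE, n = 4 per group, limma adjusted p = 0.02), with -0.47 among high-Xist and -0.16 among low-Xist arrays. The call was lost without stabilized replicate 1 (limma adjusted p = 0.069), without knockout replicate 3 (limma adjusted p = 0.068) and after repeated quantile normalization (limma adjusted p = 0.08).

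B9d1 and B9d2, the B9-domain partners of Mks1, differed by -0.11 and -0.10, with intervals of -0.28 to 0.07 and -0.25 to 0.05. The tectonic genes, whose products sit in or near the gate membrane, differed by -0.11 (Tctn1), -0.05 (Tctn2) and -0.04 (Tctn3), and Nphp4, of the nephronophthisis module, by -0.05, again with intervals spanning 0. Tctn1 was the only member with more than 1 probe set, and its dimmer probe set differed by -0.04. Cep290, which links the gate's microtubules to its membrane, had the largest p of this set. It was at 5.35, 5.54, 5.17 and 5.29 in stabilized replicates 1 to 4, against 5.27, 5.21, 5.33 and 5.38 in knockout replicates 1 to 4. The groups overlapped, with stabilized arrays at both ends, and the difference was 0.04 with an interval of -0.14 to 0.22.

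Ofd1, a protein of centriole ends and centriolar satellites encoded on the X chromosome, was the last member. It was at 6.127, 6.306, 5.813 and 5.849 in stabilized replicates 1 to 4, against 6.185, 5.996, 5.904 and 5.945 in knockout replicates 1 to 4. The stabilized arrays held both the highest and the lowest value, and the difference was 0.02 ± 0.11 (SE) with an interval of -0.22 to 0.25.

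Within the stabilized group the members as a whole were lower in replicates 3 and 4. Their mean log2 level was 6.57, 6.60, 6.47 and 6.48 in stabilized replicates 1 to 4, against 6.64, 6.61, 6.63 and 6.64 in knockout replicates 1 to 4. Stabilized replicate 2 thus lay just below the lowest knockout array. The transition zone genes did not share this order: among stabilized arrays their mean was highest in replicate 3, at 6.04, against 6.11 to 6.16 in knockout arrays. The IFT-A subunits showed the widest spread of the sets above with several genes, at 6.87, 6.90, 6.67 and 6.75 in stabilized arrays, against 6.85, 6.81, 6.81 and 6.82 in knockout arrays. Motile axoneme markers did not share this order, at 5.48, 5.53, 5.53 and 5.61 in stabilized arrays, against 6.22, 6.17, 6.24 and 6.24 in knockout arrays. The list of 39 other ciliary pathway genes did, with 6.74, 6.77, 6.68 and 6.68 in stabilized arrays, against 6.76, 6.75, 6.72 and 6.73 in knockout arrays.

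**Figure D4:**
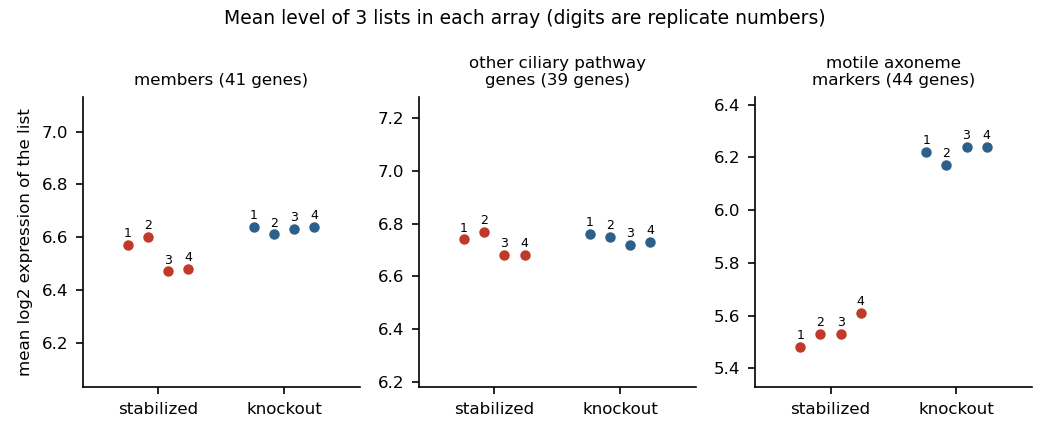
Mean log2 expression of 3 gene lists in each array (vertical axis, each panel spanning 1.1 log2 units), with replicate numbers beside the points. The members lie at 6.47 to 6.60 in stabilized and 6.61 to 6.64 in knockout arrays, and the motile axoneme markers at 5.48 to 5.61 in stabilized and 6.17 to 6.24 in knockout arrays.

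Most other genes of ciliary transport and the gate did not pass the test either. Of 39 measured, 1 was lower in stabilized lungs, 1 was higher and 37 did not pass, with a median difference of -0.04. The share called was 5.13%, beside 9.62% of all genes. The one that was lower, Ttc26, encodes a further IFT-B subunit. It was at 5.96, 5.97, 5.81 and 5.84 in stabilized replicates 1 to 4, against 6.19, 6.13, 6.09 and 6.12 in knockout replicates 1 to 4, without overlap. The difference was -0.24 ± 0.06 (SE, n = 4 per group, limma adjusted p = 0.034), and with single arrays left out it passed only without stabilized replicate 2 and missed in 7 fits (highest adjusted p = 0.086). It also missed with median centring (limma adjusted p = 0.065) and after repeated quantile normalization (limma adjusted p = 0.14).

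Ttc30b, also of the IFT-B particle, went the other way. It was at 6.54, 6.72, 6.47 and 6.38 in stabilized replicates 1 to 4, against 5.93, 5.86, 5.74 and 5.79 in knockout replicates 1 to 4. Every stabilized array lay above every knockout array, and the difference was 0.70 ± 0.08 (SE, n = 4 per group, limma adjusted p = 1.7e-04), which passed whichever array was left out. Ttc30b has near-identical copies in the mouse, which probes may not fully tell apart. Ttc30a1, such a copy, differed by -0.04, with an interval of -0.22 to 0.13.

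Most motile axoneme markers were lower in stabilized lungs. In whole lung, fewer cells of a type and less RNA per cell cannot be told apart, which holds for every result here. Of 44 measured axoneme markers (dynein arms, radial spokes, central pair and their assembly factors) 38 were lower in stabilized lungs, 0 were higher and 6 did not pass, with a median difference of -0.65, beside 6 of 41 and -0.08 for the members. All 44 were negative (43 after repeated quantile normalization and 43 without stabilized replicate 2), and 35 of them had a lower difference than Traf3ip1, the lowest of the members. The difference between these lists was not tested. The other marker lists that went with the groups were those of club cells, with 9 of 10 lower and mean levels of 8.23 to 8.52 in stabilized and 9.27 to 9.70 in knockout arrays, and of lymphocytes, with 10 of 11 lower and 5.74 to 6.01 in stabilized and 6.77 to 7.37 in knockout arrays. Of 12 cardiac and skeletal muscle markers 4 were lower (33.3%, beside 4.96% of all genes called lower). Their list mean was 7.26 to 7.38 in stabilized arrays, against 7.87, 7.51, 7.93 and 7.50 in knockout replicates 1 to 4. The 4 called markers are all cardiac (Actc1, Tnnt2, Tnni3 and Ryr2). Cardiac Myh6, Myl7 and Myl4 differed by -0.44, -0.24 and -0.36 and were not called. The skeletal markers Ckm, Acta1, Tnnt3 and Myh1 differed by -0.06, -0.05, -0.19 and 0.02 and were not called. Cardiac Nppa, also not called, was at 8.04, 5.92, 8.95 and 6.18 in knockout replicates 1 to 4, so that it weighs on the list mean. Alveolar type 2 markers went the other way, with 6 of 9 higher and 11.25 to 11.42 in stabilized and 11.01 to 11.12 in knockout arrays. Of 11 fibroblast and smooth muscle markers 2 were higher (18.2%, beside 4.65% of all genes called higher), with 9.63 to 9.77 in stabilized and 9.51 to 9.59 in knockout arrays. No value of RMA is at 0, and the part of these cell types in the members' differences was not tested.

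**Figure D5:**
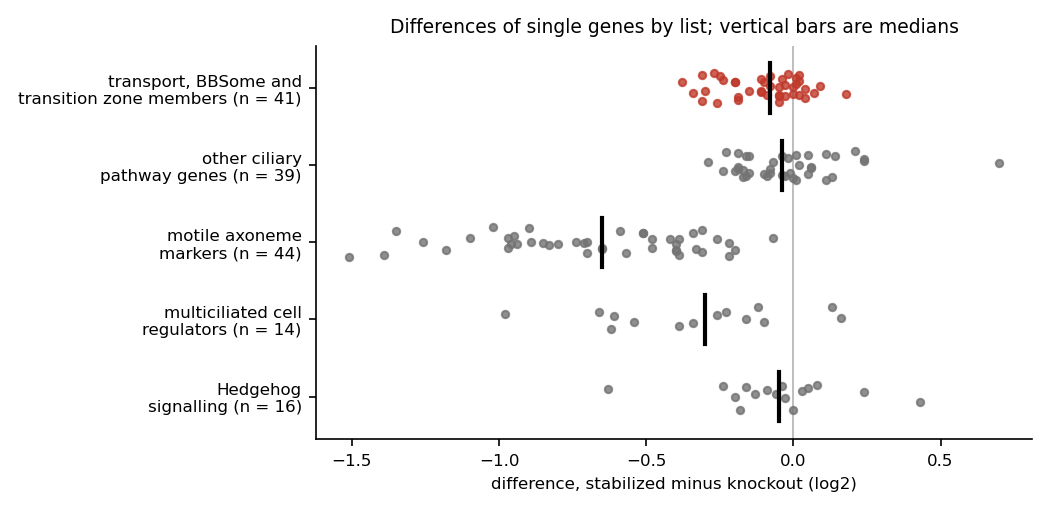
Differences between stabilized and knockout lungs of single genes (horizontal axis, log2) in the members and in 4 related lists, with vertical bars at the medians. The members have a median of -0.08 and the motile axoneme markers one of -0.65.

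Regulators of multiciliated cells were measured too, a list of transcription factors and of genes of centriole amplification such as Deup1 and Plk4. Of 14 such genes 6 were lower in stabilized lungs, 0 were higher and 8 did not pass, with a median difference of -0.30. Foxj1, the master regulator of motile cilia, was lower at 6.27, 6.17, 6.31 and 6.53 in stabilized replicates 1 to 4, against 6.89, 6.89, 7.02 and 6.95 in knockout replicates 1 to 4. The groups did not overlap, and the difference was -0.62 ± 0.08 (SE, n = 4 per group, limma adjusted p = 3.8e-04). Rfx2 and Rfx3, which act at X-boxes of primary and motile cilium genes alike, did not pass over all genes. Rfx2 averaged 6.81 ± 0.10 in stabilized and 7.04 ± 0.10 in knockout arrays (SD, n = 4), a difference of -0.23 ± 0.07 (SE, limma adjusted p = 0.068), without overlap, and it passed with only genes of a mean of at least 6 tested (limma adjusted p = 0.043). Rfx3 averaged 6.76 ± 0.10 in stabilized and 6.92 ± 0.07 in knockout arrays (SD, n = 4), with overlap, a difference of -0.16 ± 0.07 (SE, limma adjusted p = 0.2).

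Hedgehog signalling, which depends on the primary cilium, did not move in 1 direction. Of 16 measured genes 1 was lower, 1 was higher and 14 did not pass, with a median difference of -0.05. The share called was thus 12.5%, near the 9.62% over all genes. Smo, the signal transducer that enters the cilium on activation, averaged 8.50 ± 0.11 in stabilized and 8.07 ± 0.11 in knockout arrays (SD, n = 4), a difference of 0.43 ± 0.08 (SE, limma adjusted p = 0.0034). Hhip, a membrane inhibitor of Hedgehog ligands and itself a target of the pathway, averaged 8.08 ± 0.26 in stabilized and 8.71 ± 0.17 in knockout arrays (SD, n = 4), a difference of -0.63 ± 0.12 (SE, limma adjusted p = 0.0063). The targets Gli1 and Ptch1, usual readouts of pathway activity, differed by 0.03 (interval -0.14 to 0.20) and -0.13 (interval -0.30 to 0.04).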

How the data were processed

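The authors deposited 1 log2 expression value for each probe set in each array, computed with RMA and the affy package, per the submitters' processing notes (versions not given in the sources used here). RMA background-corrects, quantile-normalizes across arrays and summarises probes, by the usual definition of the method, which hides a change in total RNA and compresses dim genes. Per the labels' protocols, biotinylated cRNA was made from column-purified total RNA. Of 34760 probe sets, 21640 had 1 gene symbol in the platform annotation, 1321 had several and 11799 had none. Each gene was taken from its brightest single-symbol probe set (mean of 8 arrays). Differences are stabilized minus knockout from limma 3.58.1 (R 4.3.3, lmFit and eBayes, no covariate), with Benjamini-Hochberg adjustment over 19937 genes, and intervals are 95%. Arrays have no read depth, and 4 arrays per group limit the precision. In data simulated for this comparison over 19937 genes, limma called 76% of 100 genes given a log2 change of 0.5, 99% of 100 given a log2 change of 1, and 9 genes given none. Both changes are larger than any member's difference, and fewer genes were changed than were called in the arrays. These shares therefore do not give the power at the sizes seen in the members. The members and gene lists were chosen with earlier results of these data known. Given with every array were, in each role, up to 3 called members with the smallest p and the member with the largest p. Other members may be named by their differences, and from the other lists called genes by smallest p and Foxj1, Rfx2, Rfx3, Gli1 and Ptch1. The alternatives were a filter on dim genes, median centring, repeated quantile normalization, a trend and robust prior, the mean of all probe sets, Xist as a covariate, the replicate number as a block, and leaving out each array. Listed genes without a single-symbol probe set were not analysed here.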

Additional observations from a re-analysis of the deposited data

Results flagged for a closer look

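In 120 sets of 4 arrays checked (genes named in the text and list means, by group), 7 held an array far from the other 3 by Dixon's criterion, where chance gives about 1 in 20. Among knockout arrays, Kif17 was at 5.09 in replicate 4, against 4.83 to 4.85 in the others. Wdr35 was at 6.53 in knockout replicate 4, against 6.83 to 6.87 in the others. Knockout replicate 1 was highest for Ift81, at 6.77 against 6.52 to 6.54. The mean of the IFT-A subunits was also highest in knockout replicate 1, at 6.85 against 6.81 to 6.82. Bbs4 was at 5.57 in knockout replicate 2, against 5.68 to 5.70. Among stabilized arrays, Ift46 was at 8.18 in replicate 1, against 8.28 to 8.29, and Hhip was at 7.70 in replicate 4, against 8.16 to 8.24. None of the 6 called members was among these.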

How the results depend on the processing

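No member was called higher under any of the 15 alternatives, and the median difference of the members stayed below 0, between -0.09 and -0.04. The number of members called lower was 6 as reported, 4 to 6 under the alternatives with all arrays and 2 to 7 with 1 array left out. The genes counted were not always among the reported 6. Dync2h1, for example, was called with only genes of a mean of at least 6 (limma adjusted p = 0.043). Of 41 members 8 were called in at least 1 fit, and 2 of these, Ift27 and Dync2h1, were not called in the fit reported above. Over all genes 1917 were called, and 1216 to 1839 with 1 array left out; without stabilized replicate 1 or knockout replicate 3 there were 1216 and 1235. Of all called genes 48.4% were higher, against 63.1% with median centring and 61.9% with only genes of a mean of at least 6. The other ciliary pathway genes called lower were 1 as reported, 0 with median centring, 2 after repeated quantile normalization and 0 to 2 with 1 array left out. Those called higher were 1 as reported, 2 with only genes of a mean of at least 6, 3 with median centring and 1 to 3 with 1 array left out. The causes were not tested. Of the motile axoneme markers 16 were lower with only genes of a mean of at least 6, which left 17 of the 44. The labels number the replicates 1 to 4 in both groups, and the numbers were not taken as pairs. Deviations from the group means correlated at 0.08, 0.07, -0.01 and 0.02 between arrays of the same number, and stabilized replicate 1 correlated best with knockout replicate 3, at 0.14. Such correlations cannot exclude a pairing that leaves little trace over all genes. With the replicate block Bbs9 (limma adjusted p = 0.07) and Ttc26 (limma adjusted p = 0.05 after rounding) lost their calls; 5 members, 0 of the other ciliary pathway genes and 39 axoneme markers were lower, and 1828 genes were called. Of the 41 members 9 had a mean below 6, where RMA compresses differences most. Among them were the called members Rpgrip1l and Mks1, which the filter on dim genes left untested.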
